A study of Mus musculus with 2 samples.

Results

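Extracellular matrix genes were followed through mouse bone marrow cultures that were exposed to heme or to vehicle. The 5 genes are Fn1, Spp1, Vcan, Thbs1 and Tgfbi, taken by symbol as a fixed list from the 26124 genes of the count matrices, and their values were read by library and culture day together with Arg1 and Ccr2. Lineage-depleted bone marrow progenitors of C57BL/6 mice aged 8 to 10 weeks had been grown with 20 ng/ml GM-CSF, a growth factor under which progenitors give rise to macrophages, dendritic cells (DCs) and granulocytes. On day 3, heme bound to albumin (heme, 300 µM) or albumin alone (control) was added. Each group was 1 droplet library of 3′ ends counted through unique molecular identifiers (UMIs), and each library pooled 5 cultures marked by hashtag antibodies for culture days 0, 3, 4, 5 and 7. The cultures of days 0 and 3 had received no heme in either library, yet in the heme library they shared the droplet pool with exposed cells. The sources give no number of mice or wells per culture.

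Matrix proteins are usually credited to fibroblasts, but monocytes, macrophages and platelets also secrete several of them. Fibronectin and osteopontin carry binding motifs for integrins on the cell surface, and versican binds hyaluronan and Cd44. Thrombospondin 1 binds Cd36 and Cd47 and can activate latent TGF-β, and Tgfbi encodes a secreted adhesion protein named for its induction by TGF-β. Arg1, the cytosolic arginase, and Ccr2, the receptor through which Ccl2 draws monocytes out of the marrow, mark macrophage states and monocytes, respectively.

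All 5 genes are protein-coding in the GENCODE M21 annotation of GRCm38. Fn1 (ENSMUSG00000026193) lies on chr1:71585520-71653200, minus strand. Spp1 (ENSMUSG00000029304) lies on chr5:104435118-104441050, plus strand, and overlaps the predicted gene Gm42793 on the same strand, which held 78 UMIs in the control cells and 87 in the heme cells against 53601 and 38471 of Spp1. Vcan (ENSMUSG00000021614) lies on chr13:89655312-89742509, minus strand, Thbs1 (ENSMUSG00000040152) on chr2:118111876-118127133, plus strand, and Tgfbi (ENSMUSG00000035493) on chr13:56609523-56639562, plus strand.

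The control library held 198754588 gene UMIs in 13961 barcodes and the heme library 333481636 in 17378. Barcodes with a single hashtag (Singlet) and 500 to 5000 detected genes, under 15% mitochondrial and under 30% ribosomal UMIs were kept, which left 598 to 2715 cells per control culture and 1366 to 2481 per heme culture, with 6189203 to 34647365 UMIs per culture. More than 5000 genes were found in 16.4% to 33.9% of the Singlet barcodes of heme cultures and in 1.92% to 8.34% of those of control cultures, all left out. The ribosomal limit left out 59.9% of the Singlet barcodes of control day 0 and 7.78% of heme day 0. The libraries shared 112 barcodes, of which 33 were kept in both. With 1 library per group there was no replicate and no test: values are counts per 1000000 UMIs of the culture (CPM) with exact 95% Poisson intervals, and shares of cells carry exact 95% Clopper-Pearson intervals, which cover counting error only. A gene was called higher or lower at 2-fold or more, beside the percentage of all genes with 20 or more UMIs that met the same rule. The median log2 ratio of heme to control over these genes was 0.43 on day 0 and between 0.25 and 0.31 on the other days, so ratios near 1 lie slightly below the typical gene.

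Fn1, the gene of fibronectin, separated the libraries most clearly. For days 0, 3, 4, 5 and 7, its levels in the control library were 31.8, 43.7, 36.2, 53.9 and 507 CPM. In the heme library they were 39.6, 39.9, 5.79, 10.1 and 6.79 CPM. Both libraries lay between 31.8 and 43.7 CPM before exposure, and from day 4 on every heme culture lay below every control culture. Heme cells held 6.24-fold less Fn1 on day 4 (95% interval 5.27 to 7.43), 5.33-fold less on day 5 (4.59 to 6.23) and 74.7-fold less on day 7 (64.6 to 86.9). On day 7, 0.163% of the 12867 genes tested had a lower ratio. With all Singlet barcodes the day 7 levels were 499 CPM in control and 13.7 in heme, so that the ratio shrank to 36.4-fold (33.8 to 39.2).

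Vcan, the gene of the proteoglycan versican, was all but absent from fresh progenitors and high on day 3 in both libraries. Control levels were 1.13, 140, 70.8, 60.2 and 28.9 CPM on days 0, 3, 4, 5 and 7, and heme levels were 3.94, 150, 74.4, 95.9 and 140 CPM. After day 3 each control culture was lower than the one before, whereas in the heme library day 4 was the lowest and day 7 was again close to day 3. The day 7 level was 4.84-fold higher under heme (4.51 to 5.20), and 97.3% of the genes tested had a lower ratio. On day 4 the ratio was 1.05 in the kept cells and 1.59 (1.52 to 1.67) with all Singlet barcodes. On day 5 it was 1.59-fold higher under heme in the kept cells and 2.16-fold (2.06 to 2.26) with all Singlet barcodes, which passed 2-fold.

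Tgfbi followed the same order on day 7 but by another course. Control levels were 11.6, 99.2, 83.0, 78.6 and 152 CPM on days 0, 3, 4, 5 and 7, and heme levels were 26.6, 127, 96.5, 167 and 433 CPM. The heme library lay above the control library on every day, by 2.29-fold on day 0 (1.77 to 2.99), 1.28-fold on day 3 (1.22 to 1.34), 1.16-fold on day 4 (1.10 to 1.23), 2.12-fold on day 5 (2.01 to 2.24) and 2.85-fold on day 7 (2.76 to 2.94). The values of days 0 and 3 stood before any heme was added. With all Singlet barcodes the ratio was 1.83-fold on day 4 (1.75 to 1.91) and 3.21-fold on day 5 (3.08 to 3.35).

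Spp1, which encodes the integrin ligand osteopontin, was highest from day 4 on in both libraries. Control levels were 16.6, 133, 432, 427 and 786 CPM on days 0, 3, 4, 5 and 7, and heme levels 32.7, 167, 370, 480 and 485 CPM. No day after day 0 differed by 2-fold, and the day 7 level was 1.62-fold lower under heme (1.59 to 1.65). Which library was higher on day 4 depended on the cell filter: with all Singlet barcodes the levels were 456 CPM in control and 593 in heme.

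Thbs1, which encodes the matricellular protein thrombospondin 1, peaked on day 5. Control levels were 20.8, 147, 685, 804 and 617 CPM, and heme levels 42.8, 267, 760, 1154 and 621 CPM, on days 0, 3, 4, 5 and 7. The heme library was 1.81-fold above control on day 3, before exposure (1.75 to 1.88), and on day 7 the ratio was 1.01 (0.987 to 1.03). With all Singlet barcodes heme was lower than control from day 4 on, by 1.22-fold on day 4 (1.19 to 1.24) and 1.27-fold on day 5 (1.25 to 1.29) and 1.39-fold on day 7 (1.37 to 1.42), so its direction on those days depended on the cell filter.

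**Figure D1:**
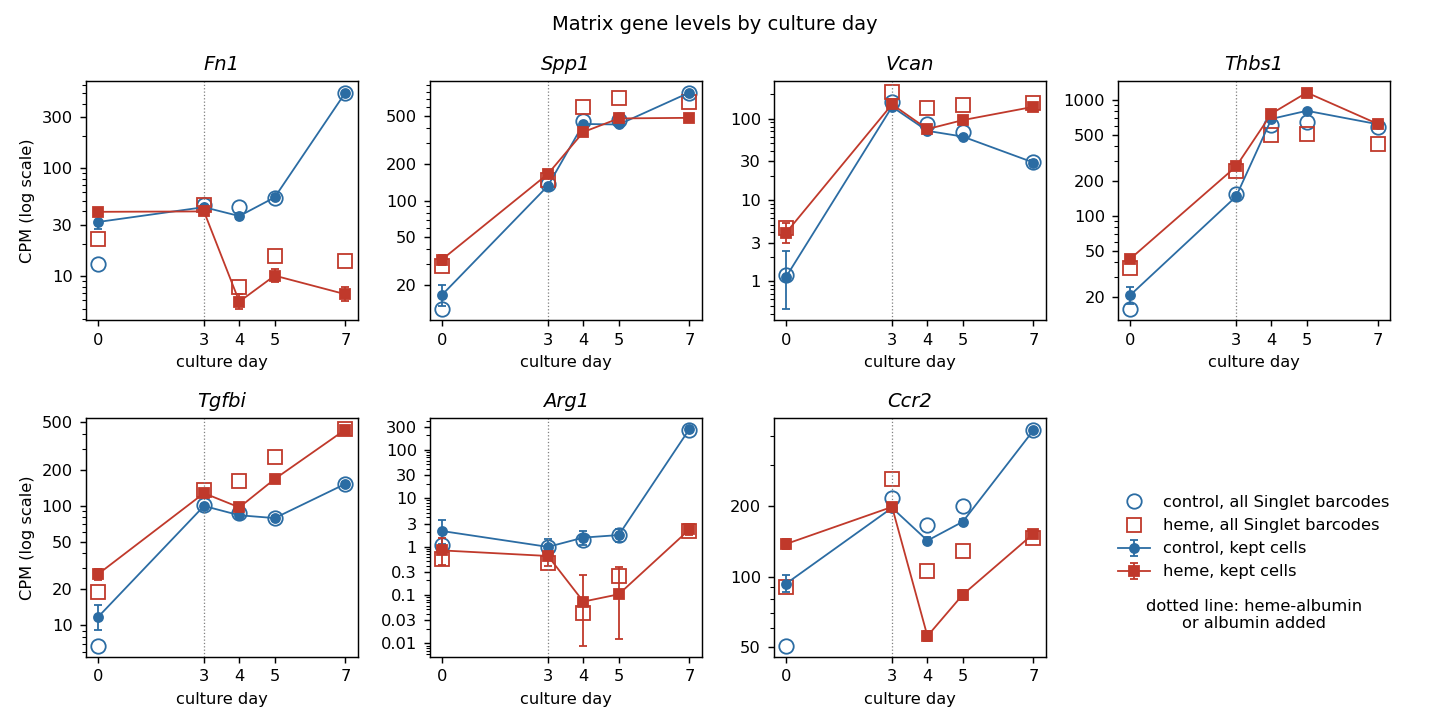
Level of each gene in CPM (log scale) against culture day in the control (circles) and heme (squares) libraries. Filled symbols are the kept cells with 95% Poisson intervals, open symbols are all Singlet barcodes without further limits, and the dotted line marks the addition of heme-albumin or albumin. Fn1 parts from day 4 on and ends at 507 against 6.79 CPM, and Vcan ends at 28.9 against 140 CPM.

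Counted over the list, 2 of the 5 genes (Vcan and Tgfbi) were higher by 2-fold or more on day 7 and 1 (Fn1) was lower, where 14.9% of all tested genes were higher and 7.67% lower. On day 5, Tgfbi was higher (9.27% of all genes) and Fn1 lower (3.75%). On day 4 none was higher (9.64%) and Fn1 was lower (2.98%). On day 3 neither direction held a gene of the list (7.95% and 0.539% of all genes). On day 0, Vcan, Thbs1 and Tgfbi were higher in the heme library without any exposure, at 1.13 to 42.8 CPM, where 20.7% of all genes were higher and 1.75% lower. The median log2 ratio of the 5 genes on day 7 was 0.01, against 0.28 over all tested genes.

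The days of one library were separate cultures and could be set side by side within it. From day 0 to day 3, 4 of the 5 genes, all except Fn1, were higher by 2-fold or more in control (15.3% of all genes) and in heme (11.6%). None was lower, where 20.7% and 26.8% of all genes were. From day 3 to day 4, the step that holds the exposure, Spp1 and Thbs1 were higher in both libraries (4.31% and 5.00% of all genes), and in the heme library Fn1 and Vcan were lower (3.32%). None was lower in control over that step (1.74%), although Vcan stood 1.98-fold lower, next to 2.01-fold in heme, on either side of the 2-fold rule. Between days 4 and 5 none of the 5 passed 2-fold in control (5.49% of all genes higher, 1.85% lower) or in heme (4.22% and 3.08%). From day 5 to day 7, Fn1 was 9.41-fold higher (8.91 to 9.94) and Vcan 2.08-fold lower (1.92 to 2.26) in control, with 4.74% of all genes higher and 4.26% lower. Over the same days only Tgfbi passed 2-fold in heme, 2.60-fold higher (2.50 to 2.70), where 4.34% of all genes were higher, and none of the 5 was lower (4.50%). On day 7 Fn1 was at 0.672 of its day 5 level in heme (0.546 to 0.826). From day 3 to day 7, Fn1, Spp1 and Thbs1 were higher in control (15.9% of all genes) and Vcan was lower (8.85%), by 4.84-fold (4.51 to 5.19). In heme Spp1, Thbs1 and Tgfbi were higher (12.5%) and Fn1 was lower (9.56%), by 5.88-fold (5.03 to 6.90).

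The promoters of Vcan and Tgfbi, both higher under heme, and of Spp1, which did not pass 2-fold on any day over all kept cells, are shown from RefSeq (GRCm38.p6). A window was found for 3 of the 5 genes, and Fn1 and Thbs1 had none in the table used. Each run reads 5′ to 3′ on the gene's own strand and ends before the first annotated base of the gene, for Vcan at chr13:89742513-89742762, minus strand, for Tgfbi at chr13:56609336-56609522, plus strand, and for Spp1 at chr5:104434861-104435110, plus strand. Capitals mark matches on either strand to the GC box GGGCGG or to the PU.1 site GAGGAAGT.
Vcan: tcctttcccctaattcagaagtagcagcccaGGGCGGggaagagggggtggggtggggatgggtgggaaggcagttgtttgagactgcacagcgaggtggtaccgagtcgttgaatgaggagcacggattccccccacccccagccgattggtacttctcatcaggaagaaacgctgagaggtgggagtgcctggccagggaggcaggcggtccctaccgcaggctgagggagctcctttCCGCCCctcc
Tgfbi: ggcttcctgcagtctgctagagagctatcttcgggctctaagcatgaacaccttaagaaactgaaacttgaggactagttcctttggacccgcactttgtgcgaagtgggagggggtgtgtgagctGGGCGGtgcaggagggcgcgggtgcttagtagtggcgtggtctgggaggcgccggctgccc
Spp1: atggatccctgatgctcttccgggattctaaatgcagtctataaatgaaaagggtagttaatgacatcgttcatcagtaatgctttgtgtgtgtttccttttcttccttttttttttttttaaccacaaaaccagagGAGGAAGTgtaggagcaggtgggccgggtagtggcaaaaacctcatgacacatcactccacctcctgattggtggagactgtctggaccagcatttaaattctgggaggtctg

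Vcan held 2 GC boxes, Tgfbi 1 and Spp1 none, and 32.7% of the 32851 windows of 250 bases in the table held at least 1. The printed run of Tgfbi is 187 bases, with 63 of its window left out, but its matches were counted over the whole window of 250 bases. Spp1 held the PU.1 letters, named for a transcription factor of myeloid cells, which 2.44% of the windows held. The core of the antioxidant response element, TGACNNNGC, which NRF2 binds, and the AP-1 site TGANTCA occurred in none of the 3 windows, against 10.2% and 6.75% of all windows. These matches describe letters in short windows only.

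The cells that carried the genes were examined next, because the cultures held several cell types. No cell thinned to 3000 UMIs carried 3 or more of 8 stromal markers, and the summed stromal level was 1.77 to 15.8 CPM per culture, with Dcn at 0 in 9 of 10 cultures and Lum in 9. Endothelial markers summed to 4.94 to 70.4 CPM, also with no cell carrying 3 or more of 4. Markers of megakaryocytes and platelets, which store thrombospondin 1, summed to 20.9 to 719 CPM, and 0 to 2.06% of cells carried 3 or more of 6. Neutrophil markers (S100a8, S100a9, Camp, Ltf, Ngp, Lcn2, Retnlg and Mmp8) made up under 1% or at least 5% of the UMIs of most cells, with 2.10% to 8.95% of cells between these limits from day 3 on. The limits were set after these values were seen. Cells at 5% or more made up 48.6%, 65.6%, 51.7% and 3.24% of control cells on days 3, 4, 5 and 7 and 57.4%, 81.7%, 68.6% and 18.6% of heme cells, and cells under 1% made up 93.6% of control and 72.5% of heme cells on day 7. DCs, taken as cells under 1% with 3 or more of 7 DC markers, made up 18.2% of control and 1.69% of heme cells on day 7. DC markers were counted after thinning to 3000 UMIs. Cells with fewer UMIs therefore fell in neither the DC range nor the range with fewer than 3 DC markers. Counts relative to a culture's total cannot tell fewer cells of a type from less RNA per cell, so levels were also read within these ranges.

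Thbs1 was the exception among the 5 genes. Cells at 5% or more held 57.2%, 86.0% and 75.7% of the Thbs1 UMIs of control cells on days 3, 4 and 5, and 75.3%, 97.9% and 90.7% of those of heme cells. The level in these cells was 1105 CPM in control and 1006 in heme on day 4, against 178 and 40.1 CPM in cells under 1%. For Thbs1 on days 3 to 5 the data thus went against the label of a macrophage gene. On day 7 its level was still higher in cells at 5% or more, 1879 CPM in control and 1680 in heme, against 577 and 341 under 1%. Cells under 1% then held 19463 of 21378 Thbs1 UMIs in control and 7576 of 16745 in heme. Spp1, Vcan, Tgfbi and Fn1 were mainly in cells under 1%: these held 79.5% to 99.4% of their UMIs in control from day 3 on and 49.7% to 96.2% in heme, the lowest value being Spp1 on day 4. Even so, of the cells under 1% with fewer than 3 DC markers on day 7, 26.5% in control and 35.8% in heme carried 3 or more of 8 macrophage markers when each cell was thinned to 3000 UMIs.

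**Figure D2:**
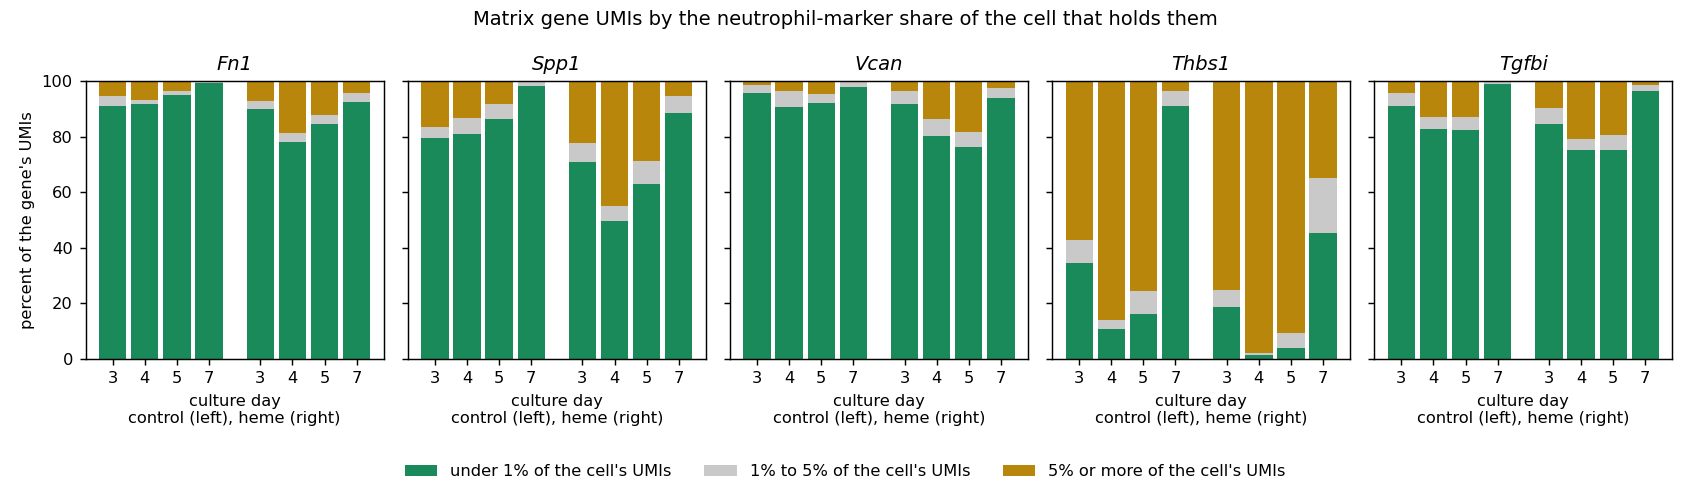
Percent of each gene's UMIs held by cells with under 1% (green), 1% to 5% (grey) and 5% or more (gold) of their UMIs from 8 neutrophil markers, for culture days 3, 4, 5 and 7 of the control (left bars) and heme (right bars) libraries. Thbs1 lies mostly in gold on days 3 to 5, up to 97.9% in heme on day 4, and the other 4 genes lie mostly in green except for Spp1 in heme on day 4, at 49.7%.

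Reading the genes in cells under 1% with fewer than 3 DC markers changed the account of Thbs1. In these cells its control levels were 104, 188, 230 and 693 CPM on days 3, 4, 5 and 7, and its heme levels were 131, 43.5, 119 and 347 CPM. Heme was 1.26-fold higher on day 3 (1.17 to 1.35), and then 4.33-fold lower on day 4 (3.79 to 4.96), 1.93-fold lower on day 5 (1.79 to 2.09) and 1.99-fold lower on day 7 (1.94 to 2.05). In cells at 5% or more, Thbs1 was 1879 CPM in control and 1680 in heme on day 7, a ratio of 0.894 (0.830 to 0.964). In cells between 1% and 5%, Thbs1 was 2182 CPM in control and 2670 in heme on day 7, 1.22-fold higher (1.14 to 1.31). The even level over all cells on day 7 thus stood beside a lower level in heme cells under 1%. Cells between 1% and 5% and cells at 5% or more both made up larger shares of heme than of control cells that day. The part of each range in the even level was not tested.

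Fn1 kept its difference in these cells. Control levels were 80.6, 84.2, 92.0 and 634 CPM on days 3, 4, 5 and 7 and heme levels 94.0, 20.6, 23.3 and 7.67 CPM. The level under heme was 4.09-fold lower on day 4 (3.37 to 5.00), 3.94-fold lower on day 5 (3.34 to 4.68) and 82.7-fold lower on day 7 (71.0 to 96.9).

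Vcan and Tgfbi were already apart in these cells on day 3, before exposure, and lay further apart on day 4. Vcan stood at 274, 160, 94.2 and 28.1 CPM in control and 358, 278, 209 and 162 CPM in heme on days 3, 4, 5 and 7, so that it declined from day to day in both libraries. It was higher under heme by 1.31-fold on day 3 (1.25 to 1.36), 1.74-fold on day 4 (1.62 to 1.86), 2.21-fold on day 5 (2.05 to 2.39) and 5.76-fold on day 7 (5.32 to 6.24). Tgfbi stood at 185, 174, 118 and 189 CPM in control and 280, 347, 357 and 517 CPM in heme. It was higher under heme by 1.51-fold on day 3 (1.44 to 1.59), 1.99-fold on day 4 (1.87 to 2.13), 3.02-fold on day 5 (2.84 to 3.22) and 2.73-fold on day 7 (2.64 to 2.82). Spp1 was 965 CPM in control and 533 in heme on day 7, 1.81-fold lower (1.77 to 1.85), and on day 4 its ratio was 0.983 (0.950 to 1.02).

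In this range none of the 5 genes passed 2-fold on day 3 (4.98% of all genes higher and 0.544% lower). On day 4 none was higher (11.1%) and Fn1 and Thbs1 were lower (3.33%). On day 5 Vcan and Tgfbi were higher (12.0%) and Fn1 was lower (4.51%), and the same held on day 7 (13.5% and 7.31%). On day 0, before exposure, 4 were higher and none lower (21.4% and 1.82%). With DCs left in, the counts of higher and lower genes were 3 and 0 on day 0 (21.0% and 1.75% of all genes), 0 and 0 on day 3 (5.33% and 0.517%), 0 and 2 on day 4 (12.0% and 3.1%), 1 and 2 on day 5 (11.3% and 3.98%) and 2 and 1 on day 7 (14.5% and 8.22%).

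In cells at 5% or more, Spp1 was higher under heme on days 4 and 5, at 107 against 226 CPM and 112 against 271 CPM, which is 2.12-fold (2.00 to 2.25) and 2.42-fold (2.24 to 2.61). Over the same days Spp1 differed by less than 2-fold in all kept cells. Vcan was 4.40 to 9.36 CPM in these cells in control and 9.45 to 34.3 CPM in heme. Counted over the list, 2 of the 5 were higher and none lower on day 3 (14.4% and 0.825% of all genes), 2 and 1 on day 4 (15.5% and 0.726%), 2 and 1 on day 5 (11.2% and 1.88%) and 1 and 1 on day 7 (23.4% and 3.65%). On day 0 only 1 of the 5 had 20 UMIs there, and it was neither (31.7% and 5.89%).

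**Figure D3:**
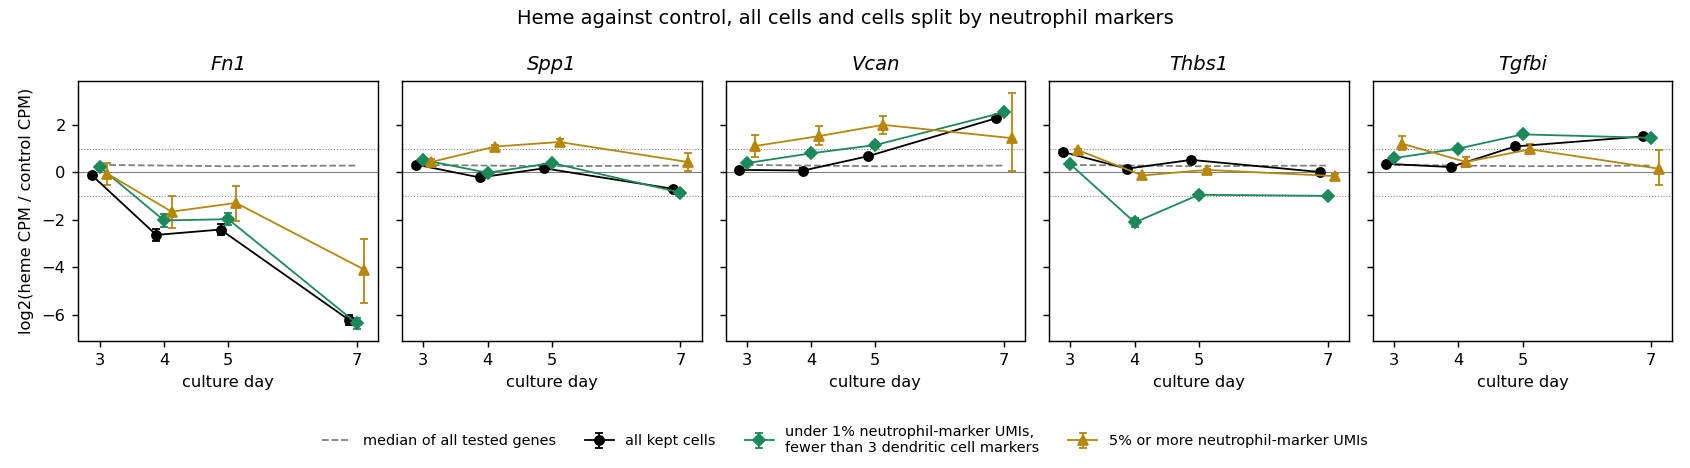
Log2 ratio of heme to control CPM by culture day in all kept cells (black), in cells with under 1% of UMIs from neutrophil markers and fewer than 3 DC markers (green) and in cells with 5% or more (gold), with 95% intervals. The dashed line is the median of all tested genes in all kept cells, between 0.25 and 0.31, and the dotted lines mark 2-fold. Thbs1 in the green range lies 4.33-fold below control on day 4, and Fn1 is low in every range after day 3.

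Fewer DCs than other cells carried Fn1, Spp1, Thbs1 and Tgfbi, while Vcan was in like shares of both. Of 498 control cells with 3 or more DC markers on day 7, irrespective of neutrophil markers, 3.61% carried Fn1, 8.03% Spp1 and 2.21% Tgfbi, against 34.4%, 47.2% and 31.8% of the other cells. Thbs1 was in 5.62% of them. Vcan was carried by 7.43% and 7.44%. In heme only 34 such cells were found.

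To give the share of carrying cells and the UMIs in each at 1 depth, every cell was thinned to 3000 UMIs, which left out 21 to 290 shallower cells per culture. Fn1 was found in 28.4% of control cells on day 7 (26.7% to 30.2%) and 1.26% of heme cells (0.81% to 1.87%), and carrying cells held 4.84 and 1.21 UMIs on average. Without thinning, Fn1 was in 35.0% and 4.72% of cells, Vcan in 18.8% and 52.4%, and Tgfbi in 43.6% and 77.0%. Vcan was found in 7.44% of control (6.45% to 8.52%) and 25.5% of heme cells (23.6% to 27.6%), and Tgfbi in 26.0% (24.3% to 27.8%) and 57.3% (55.1% to 59.6%). A carrying cell held 1.20 against 1.48 UMIs of Vcan and 1.71 against 2.12 of Tgfbi. Since a carrying cell holds at least 1 UMI, more carrying cells and more RNA per cell cannot be told apart at this depth. Spp1 was found in 39.5% of control (37.6% to 41.5%) and 46.3% of heme cells (44.1% to 48.6%), against the order of its level, so no order was read from it. A control cell with Spp1 held 6.09 UMIs and a heme cell 2.93. Thbs1 was found in 41.3% and 46.6%.

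Free RNA in droplets can give UMIs in cells that do not express a gene, so a background was read. Cells of day 0 with 3 or more erythroid markers (142 control and 174 heme cells, median 19349 and 19042 UMIs) should lack the genes. Of these, 1.41% in control and 0.575% in heme carried Fn1, 0 and 1.72% Vcan, 4.23% and 3.45% Thbs1, and 1.41% and 1.72% Tgfbi. A count of 0 of 142 cells, taken as 3 counts at most, allows a share of up to 2.11%, and the exact 95% interval reached 2.56%. Spp1 was at 0.704% in control and 8.05% in heme. The Fn1 shares of heme cells on days 4, 5 and 7, 1.21% to 1.79%, lay under the upper bound of this background, 3.16%. The level of Fn1 in the erythroid cells was 0.324 CPM in heme, on 1 UMI, and 3.35 CPM in control, against 5.79 to 10.1 CPM in the heme cultures of those days.

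Arg1 was high in a single culture, that of control day 7. Its level in control was 2.10, 0.986, 1.54, 1.73 and 270 CPM on days 0, 3, 4, 5 and 7, and in heme it was between 0.0729 and 2.26 CPM throughout. Only control day 7 held 20 or more cells with Arg1, 317 of 2542. All 5 genes were more often found in cells with Arg1 there: Fn1 in 80.8% (76.0% to 84.9%) against 20.9% of cells without (19.3% to 22.7%), Thbs1 in 83.3% against 35.4%, Tgfbi in 58.0% against 21.5%, Spp1 in 57.4% against 37.0%, and Vcan in 11.4% (8.08% to 15.4%) against 6.88% (5.86% to 8.01%). The order was the same for all 5 in cells under 1% with fewer than 3 DC markers, where Fn1 was found in 80.6% against 27.5%. Without thinning, 28, 36 and 32 control cells of days 3, 4 and 5 and 20 heme cells of day 7 carried Arg1. By share intervals, 0 of the 5 genes were more often found with Arg1 on control day 3 and heme day 7. On control days 4 and 5 they numbered 4 (1 less often) and 3. For Arg1 and Ccr2 alike, the share of all genes meeting this rule was not computed.

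Ccr2, the monocyte receptor, was also lower under heme, by 2.57-fold on day 4 (2.42 to 2.73), 2.06-fold on day 5 (1.94 to 2.18) and 2.78-fold on day 7 (2.68 to 2.88). In cells under 1% with fewer than 3 DC markers it was 1.45-fold lower on day 4 (1.36 to 1.55), 1.40-fold on day 5 (1.32 to 1.49) and 2.89-fold on day 7 (2.79 to 2.99). With all Singlet barcodes it was 1.58-fold lower on day 4 (1.52 to 1.64) and 1.56-fold on day 5 (1.51 to 1.61), so 2-fold was passed on those days in all kept cells but in neither of these. Over all kept cells, Fn1, Spp1, Vcan and Tgfbi were more often found in cells with Ccr2 on days 3, 4 and 5 in both libraries. On day 4, for example, Vcan was in 33.3% of control cells with Ccr2 (28.4% to 38.5%) and 5.27% of those without (4.24% to 6.46%), and in 46.2% and 7.75% of heme cells. Thbs1 went the other way: on day 4 it was in 30.5% of control cells with Ccr2 and 66.0% of those without, and in 21.3% and 69.5% of heme cells.

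That order of Thbs1 was not seen in cells under 1% with fewer than 3 DC markers. There it was in 26.4% of control cells with Ccr2 (21.6% to 31.7%) and 20.4% without (15.8% to 25.6%) on day 4, and in 7.81% (3.81% to 13.9%) and 13.7% (9.44% to 19.0%) of heme cells. The intervals of the Thbs1 shares also overlapped on days 3 and 5 in both libraries. Of these cells on day 4, 314 in control and 128 in heme carried Ccr2. By the difference, Vcan was more often found in cells with Ccr2 by 12.8 percentage points in control (95% interval of the difference 5.27 to 20.2) and 15.7 in heme (4.42 to 26.7), and Tgfbi by 19.3 (11.5 to 26.8) and 14.4 (3.15 to 25.2). By share intervals, none of the 5 genes stood apart in heme on day 4 or 5. For Vcan on day 4 they were 46.4% to 64.3% with Ccr2 and 33.2% to 46.5% without. For Spp1 the difference was 20.2 points in control (12.0 to 28.1) and 0.988 in heme (-10.1 to 11.8). On day 5 the difference of Vcan was 13.1 points in control (7.43 to 18.9) and 10.9 in heme (0.522 to 21.3).

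On day 7, all 5 genes were found in a larger share of the control cells with Ccr2 than of those without. Fn1 was in 50.3% of cells with Ccr2 (47.4% to 53.2%) and 10.0% of those without (8.46% to 11.7%). In heme, Fn1 was in 0.932% and 1.36%, while Vcan was in 37.3% against 22.1%, Tgfbi in 73.2% against 52.7% and Spp1 in 52.4% against 44.5%. Thbs1 was in 48.7% (43.9% to 53.6%) against 46.0% (43.4% to 48.6%) over all kept heme cells. In the cells under 1% with fewer than 3 DC markers, the control order held by share intervals for Fn1, Vcan, Thbs1 and Tgfbi, and in heme Thbs1 was in 45.9% (40.9% to 50.9%) against 27.6% (24.8% to 30.5%) and Vcan in 38.3% against 28.1%, while Tgfbi, in 75.4% (70.9% to 79.6%) against 70.0%, had overlapping intervals. The interval of the difference excluded 0 for Spp1 in control (1.29 to 10.4 points) and for Tgfbi in heme (0.104 to 10.5), although their share intervals overlapped. In these restricted control cells, UMIs per cell went the other way for Spp1, at 2.27 with Ccr2 and 4.12 without. For Thbs1 they were 2.45 and 2.76, while Fn1, Vcan and Tgfbi had more UMIs per cell with Ccr2.

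**Figure D4:**
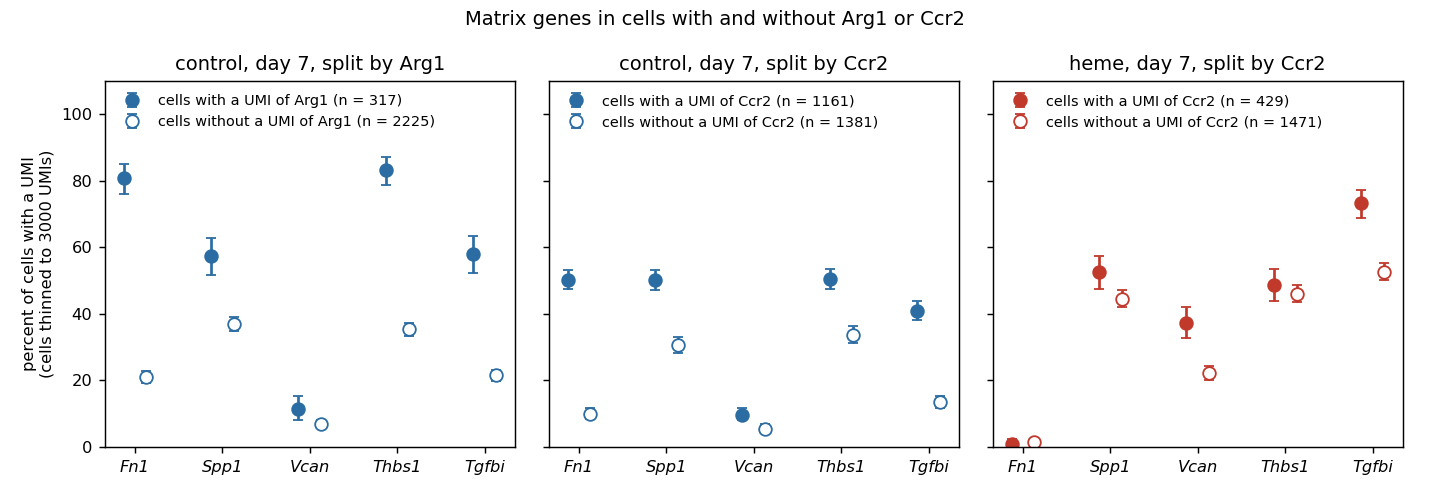
Percent of cells with a UMI of each gene on day 7, in cells with (filled) and without (open) a UMI of Arg1 or Ccr2, thinned to 3000 UMIs, with 95% Clopper-Pearson intervals. Fn1 shows the widest gap in control, 80.8% against 20.9% by Arg1 and 50.3% against 10.0% by Ccr2, and is in 0.932% and 1.36% of heme cells with and without Ccr2.

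**Figure D5:**
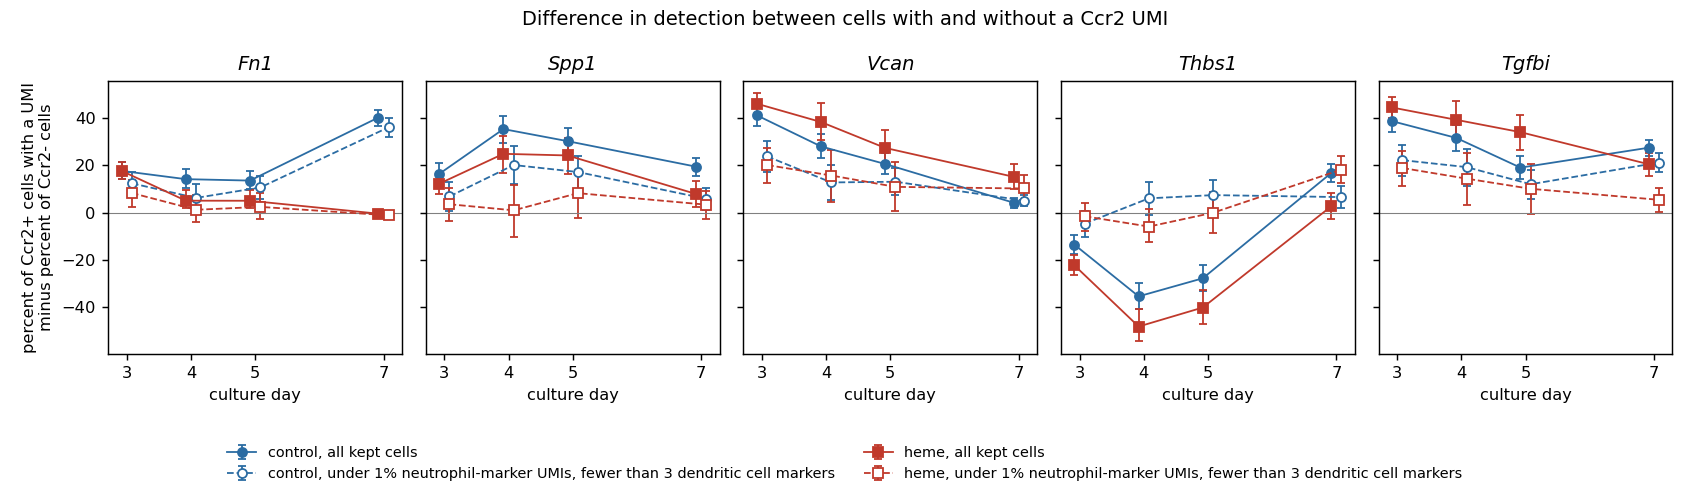
Percentage of cells with Ccr2 that carry a gene minus the percentage of cells without Ccr2 that carry it, by culture day, in all kept cells (filled) and in cells with under 1% of UMIs from neutrophil markers and fewer than 3 DC markers (open). Thbs1 is below 0 on days 3 to 5 in all kept cells, and its intervals in the restricted cells include 0 on days 3 and 4 in both libraries. Bars are 95% intervals of the difference.

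Cells of control day 7 with both Arg1 and Ccr2 made up 9.72% of cells and held 43.5% of the Fn1 UMIs, and those with Ccr2 alone made up 36.0% and held 42.2%. Fn1 was thus in 84.6% of the former and 41.0% of the latter, and in 6.94% of cells with neither. The same classes divided Spp1 more evenly, since cells with neither gene made up 51.6% of cells and held 52.7% of its UMIs. In the thinned cells its level was 821 CPM with neither, 765 with Ccr2 alone, 653 with both and 1490 with Arg1 alone.

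The genes also met in cells in different ways. In control on day 7, Tgfbi was in 57.2% of cells with Fn1 (53.5% to 60.8%) and 13.7% of those without (12.1% to 15.3%), and in 43.1% of cells with Thbs1 (40.1% to 46.2%) against a share of 12.3% to 15.9% in those without. In heme the order with Thbs1 was turned, Tgfbi being in 41.6% of cells with Thbs1 (38.4% to 45.0%) and 71.0% of those without (68.1% to 73.8%). The larger share of neutrophil-marker cells in heme stood beside this value, and its part was not tested. At least 3 of the genes were found in 23.1% of control and 21.2% of heme cells, and none in 31.6% and 7.05%.

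Over the 10 cultures, as a description of points that share 2 libraries and their days, log2(CPM + 1) of Spp1 and Thbs1 had a Pearson r of 0.97 and that of Vcan and Tgfbi 0.86. Fn1 had r of -0.25 to 0.04 with the other 4, and 0.81 and 0.84 with Arg1 and Ccr2. Among 7851 genes that reached 20 CPM, the 3 most like Fn1 were Ndufa6 (0.96), Fahd2a (0.95) and Gpr183 (0.93). Spp1 was most like Metrnl, Adam8 and Litaf (0.99 each), Vcan like Atp6ap2 (0.99), Ptpn1 and Fcor (0.98 each), Thbs1 like Il1rn (0.99), Lpcat2 and Cstdc4 (0.98 each), and Tgfbi like Lrp1 (1.00), Socs3 and Dse (0.98 each). With Spearman ranks 3 of these 15 genes stayed among the 3 most alike, and 4 did without the cultures of day 0.

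Other matrix genes were mostly low in these cells: 15 of 40 listed genes had 20 or more UMIs on day 7, of which 6 were higher by 2-fold or more and 3 lower, where 14.9% of all tested genes were higher and 7.67% lower. The largest ratios were those of Col1a1, Vwf and Lamc1. Col1a1, a fibrillar collagen chain, was 8.04-fold higher (2.77 to 31.8) on 4 and 25 UMIs. Vwf, which encodes von Willebrand factor, was 3.55-fold higher (3.16 to 4.01). Summed megakaryocyte and platelet markers were 266 and 502 CPM, but 0 of 2542 control and 0 of 1900 heme cells carried 3 or more of them. The laminin chain gene Lamc1 was 3.30-fold higher (2.70 to 4.05). The smallest ratios were those of Tnc, which encodes tenascin C, at a ratio of 0.168 (0.0322 to 0.555) on 23 and 3 UMIs, of Srgn, the granule proteoglycan serglycin, 4.09-fold lower (3.95 to 4.23), and of Tgm2, a matrix cross-linking transglutaminase, 2.14-fold lower (1.92 to 2.37).

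Of 20 integrins and other matrix receptors, 19 had enough UMIs on day 7, of which 4 were higher and 4 lower, beside the same 14.9% and 7.67% of all genes. Itgb3, whose integrin with Itgav binds fibronectin, osteopontin and thrombospondin 1, was at 0.722 CPM in control and 5.27 in heme, 7.30-fold higher (4.75 to 11.7). The syndecan gene Sdc4 was 3.70-fold higher (3.43 to 4.00) and Tlr2 2.63-fold higher (2.53 to 2.75). Sdc3 was 3.25-fold lower (3.04 to 3.47), and the integrin genes Itgb7 and Itgax, which DCs express, were 3.19-fold lower (2.81 to 3.65) and 2.90-fold lower (2.77 to 3.04), next to the DC shares of 18.2% and 1.69% given above. The part of cell composition in these ratios was not tested.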

How the data were processed

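Raw UMI counts were deposited for every gene and barcode. The authors had made them with Cell Ranger (4.0.0 per the submitters' processing notes; the matrix headers name another version) on GRCm38.p6. The deposited hashtag calls, made by the authors with Seurat 3.2.3, were used as they stand. Barcodes with 1 hashtag were kept at 500 to 5000 genes, under 15% mitochondrial and under 30% ribosomal UMIs. The limits follow the study's methods, with both percentages read as upper limits, and doublets were treated only through the hashtag calls. UMIs were summed per library and day and divided by the total. The libraries were set side by side by ratio, with exact 95% intervals of 2 counts and no test. Cells were thinned to 3000 UMIs (seed 11) for shares. Alternatives used TMM factors of edgeR 4.0.16 and size factors of DESeq2 1.42.0, other cell filters, depths and fold limits. Positions came from GENCODE M21 and promoters from RefSeq (GRCm38.p6). Python 3.11.15 and scipy 1.17.1 were used. The calls were tried on simulated Poisson counts without spread between libraries, so this cannot show how they fare under such spread.

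The genes, marker panels and context lists were chosen with earlier results of these data known. Named beside the 5 genes were Arg1 and Ccr2, the 3 genes most like each by correlation, the 3 largest and 3 smallest day 7 ratios of each context list, and markers. The neutrophil-marker ranges were set after seeing the data. Exposure times in the design text (24, 72 and 96 h) do not match the labelled days 4, 5 and 7 throughout, so days are used. Of the listed matrix genes, 38 of 40 were found by symbol.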

Additional observations from a re-analysis of the deposited data

Results flagged for a closer look

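Fn1 moved in opposite directions in the libraries: from day 3 to day 7 it was 11.6-fold higher in control and at 0.170 of its level in heme, a difference of -6.09 on the log2 scale, and from day 5 to day 7 it was 9.41-fold higher and at 0.672, a difference of -3.81. Vcan also moved oppositely, being at 0.851 of its day 4 level on day 5 in control and at 1.29 in heme (0.60 on the log2 scale), and from day 5 to day 7 at 0.480 and 1.46 (1.60 on the log2 scale). With 1 library per group these differences were not tested. In cells with under 1% of UMIs from neutrophil markers and fewer than 3 DC markers, Vcan declined in both libraries over these days (94.2 to 28.1 CPM in control and 209 to 162 in heme from day 5 to day 7), so its opposite direction was not seen in these restricted cells, whereas that of Fn1 was.

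Among barcodes with several hashtags, which no comparison used, Tgfbi was at 99.3 CPM in control and 225 in heme, a ratio of 2.27. Such barcodes pool cells of different days.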

How the results depend on the processing

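No paired analysis was possible because each group was 1 library. Over all days, 6 values of the 5 genes were higher by 2-fold or more and 3 lower. The 6 fell to 3 with TMM, with DESeq2 size factors and after division by the day 3 ratio, and to 2 at 3-fold. On day 7, 2 genes were higher and 1 lower. With 1.5-fold 2 were lower, as after division by the day 3 ratio, and with 3-fold 1 was higher. In cells under 1% of neutrophil markers 5 values were lower over all days, 4 without DCs, and in cells at 5% or more 1 gene was higher on day 7. Within libraries, 7 steps were higher and 1 lower in control and 7 higher and 2 lower in heme. The 2 became 1 with all Singlet barcodes, with the gene minimum alone, with TMM, with DESeq2 and at 3-fold, where 4 were higher in heme and 0 lower in control. At 1.5-fold 2 were lower in control. Shares under heme lay below control in 3 cases, and in 5 without thinning. Arg1 gave 5 genes, or 12 without thinning (1 less often). Ccr2 gave 36 such values higher and 6 lower, or 23 higher without neutrophil-marker cells and DCs and 0 lower without neutrophil-marker cells. The share of all genes was not computed for the Arg1 and Ccr2 counts. Of other matrix genes, 3 were lower, or 5 with TMM or DESeq2. Of the 15 most alike genes, 3 stayed with Spearman ranks and 4 without day 0. Arg1 on day 0 turned to 0.47 (log2) with equal cell weights, and Ccr2 on day 5 to 0.59 in cells at 5% or more. The day 7 log2 ratio lay between -6.48 and -4.11 for Fn1, 1.44 and 2.53 for Vcan and 0.15 and 1.71 for Tgfbi over all alternatives tried, the smallest of each in cells at 5% or more. The causes were not tested. Counting error is small above 1000 UMIs, and the spread between libraries is unknown.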
